A study of Homo sapiens with 48 samples.

Results

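SPATA20, MCAM, LGALS3BP, PLPPR4, HTRA1, SLIT1, MEF2A and GULP1 are genes whose total RNA responded differently to depletion of eIF2Bα and of eIF2Bδ. They are 8 of the 11947 genes of the total RNA table, and all 8 are also among the 11145 genes of the table of ribosome-protected fragments (RPFs). They were chosen on measured values, the difference between their total RNA responses to the knockdowns, so their total RNA responses are given as a description with no test. The open questions were whether RPFs followed, and whether the lines already differed before induction.

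The libraries came from SW480 cells, a human APC-mutant colorectal adenocarcinoma line. Selected pools of cells carried a doxycycline (DOX)-inducible short hairpin RNA, either non-targeting (shCTRL), against EIF2B1 (shEIF2B1, eIF2Bα) or against EIF2B4 (shEIF2B4, eIF2Bδ), so that all 3 lines shared the vector and the selection. Lines received DMSO alone (-DOX) or DOX at 1 µg/ml (+DOX) over 5 days, which gave 6 groups, each repeated in 4 separate weeks. A total cytoplasmic RNA library and an RPF library were made from every one of the 24 lysates, and the deposited values are regularized log2 values without read counts, so the depth behind a value is unknown. In bulk lysates, fewer cells with a transcript and less transcript per cell cannot be told apart.

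The eIF2B complex is the exchange factor that reloads eIF2 with GTP, so that eIF2 can bring the initiator tRNA to the ribosome. Its α, β and δ subunits sense phosphorylated eIF2α, which blocks the exchange. When exchange falls, most initiation slows while mRNAs such as ATF4 are translated better, and ATF4 with DDIT3 (CHOP) drives the transcription of the integrated stress response. The response to a knockdown is the change from -DOX to +DOX in that line minus the same change in shCTRL, on the log2 scale. Values after ± are standard errors, and a gene was called where its limma p, two-sided and adjusted over the whole table by Benjamini-Hochberg, was under 0.1.

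The targeted genes fell in their own lines. EIF2B1 total RNA responded to shEIF2B1 by -0.67 ± 0.15 (limma, adjusted p = 0.0263), and EIF2B4 total RNA to shEIF2B4 by -0.49 ± 0.14 (adjusted p = 0.0634). Before induction, EIF2B1 RPFs were already lower in shEIF2B1 than in shCTRL, by -0.45 ± 0.093 (limma, adjusted p = 0.00527), and EIF2B4 RPFs were lower in shEIF2B4 than in shCTRL, by -0.42 ± 0.14 (adjusted p = 0.0336). DDIT3 rose in total RNA under both knockdowns, by 0.91 ± 0.10 under shEIF2B1 and 1.16 ± 0.1 under shEIF2B4 (limma, adjusted p = 4.16e-05 and 9.02e-07). ATF4 rose in RPFs under both, by 1.02 ± 0.15 and 0.76 ± 0.20 (adjusted p = 0.000223 and 0.069), while its total RNA responses of 0.19 ± 0.11 and 0.087 ± 0.092 did not pass. All shEIF2B4 libraries lie lower across genes, with library medians of 6.842 to 6.966 in RPFs against 6.977 to 7.122 in the other lines. The median of all genes for uninduced RPFs, shEIF2B1 minus shEIF2B4, was therefore 0.13 and not 0, and comparisons of lines are read against it. Of the 13 colorectal epithelial markers, 6 were in both tables, among them EPCAM, KRT8, KRT18 and CDX2, while KRT20, VIL1 and CDH17 were among those absent. No fibroblast or endothelial marker was listed, of 6 and 4, while CD68 of 5 blood cell markers and SNAP25 and SYT1 of 4 neuronal markers were.

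In total RNA, 12 of 11947 genes (0.1%) passed the threshold for a difference between the responses, and the 8 genes are among them, so their count is fixed by the choice. The other 4 were UPP1, NT5E, EIF2B1 and BECN1. HTRA1 was the last gene inside the threshold, with a difference of 0.51 ± 0.11, and THUMPD1 the first outside it, with -0.53 ± 0.12. The adjusted p values by which the choice placed them, 0.0928 and 0.117, only locate the threshold and test nothing here. SPATA20, MCAM, LGALS3BP, PLPPR4, HTRA1 and SLIT1 responded more positively to shEIF2B1, and MEF2A and GULP1 more positively to shEIF2B4.

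Positions are whole-gene spans from GENCODE v29 on GRCh38, while the authors used release 38, and 3 of the 8 transcripts have the same version in both. PLPPR4 is at chr1:99263953-99309590, GULP1 at chr2:188291669-188595931, HTRA1 at chr10:122458551-122514908, MEF2A at chr15:99565417-99716466 and SPATA20 at chr17:50543058-50555852, all on the plus strand. On the minus strand are SLIT1 at chr10:96998038-97185920, MCAM at chr11:119308529-119321521 and LGALS3BP at chr17:78971238-78980109. RPFs were counted on the coding sequence of 1 transcript per gene, whose coding exons summed to 4383 bases in SLIT1, the longest, and to 912 bases in GULP1, the shortest. The HTRA1 transcript used has a coding length of 1122 bases.

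The difference of total RNA responses, shEIF2B1 minus shEIF2B4, was above 0 in 6 of the genes and below 0 in MEF2A and GULP1. The 250 bases before each RefSeq start site (GRCh38) were therefore searched on both strands for 6 short motifs, none of which contains another. These were TGATGNAA, the core of the C/EBP-ATF element bound by ATF4, TGACGTCA, the cAMP response element, CACGTG, the E-box, TGACTCA, the AP-1 site, TATAAA, the TATA box, and CTANNNNTAG, the MEF2 site. They occurred in 3.14%, 1.65%, 6.34%, 4.2%, 10.7% and 2.36% of the 35116 promoters, in that order. Of the 8 genes, all with an entry, MCAM held the cAMP response element and 1 of the 3 MEF2A promoters held the MEF2 site, and no other match was found. Both matches are shown because they were the only ones, with the 100 bases before the start site in lower case and the match in capitals, on the strand of the gene. The MCAM stretch is chr11:119317131-119317230 (minus strand) and the MEF2A stretch chr15:99565884-99565983 (plus strand).
MCAM: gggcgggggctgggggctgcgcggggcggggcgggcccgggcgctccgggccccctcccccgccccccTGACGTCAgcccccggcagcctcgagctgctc
MEF2A: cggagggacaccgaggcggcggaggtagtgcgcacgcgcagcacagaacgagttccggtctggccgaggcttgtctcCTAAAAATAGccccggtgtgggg
The matches describe letters in these windows, and binding was not measured. MEF2A is itself a factor that binds MEF2 sites. The GC content of the windows ran from 56.8% in LGALS3BP to 82.8% in one MEF2A promoter, against a median of 58% over all promoters.

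**Figure D1:**
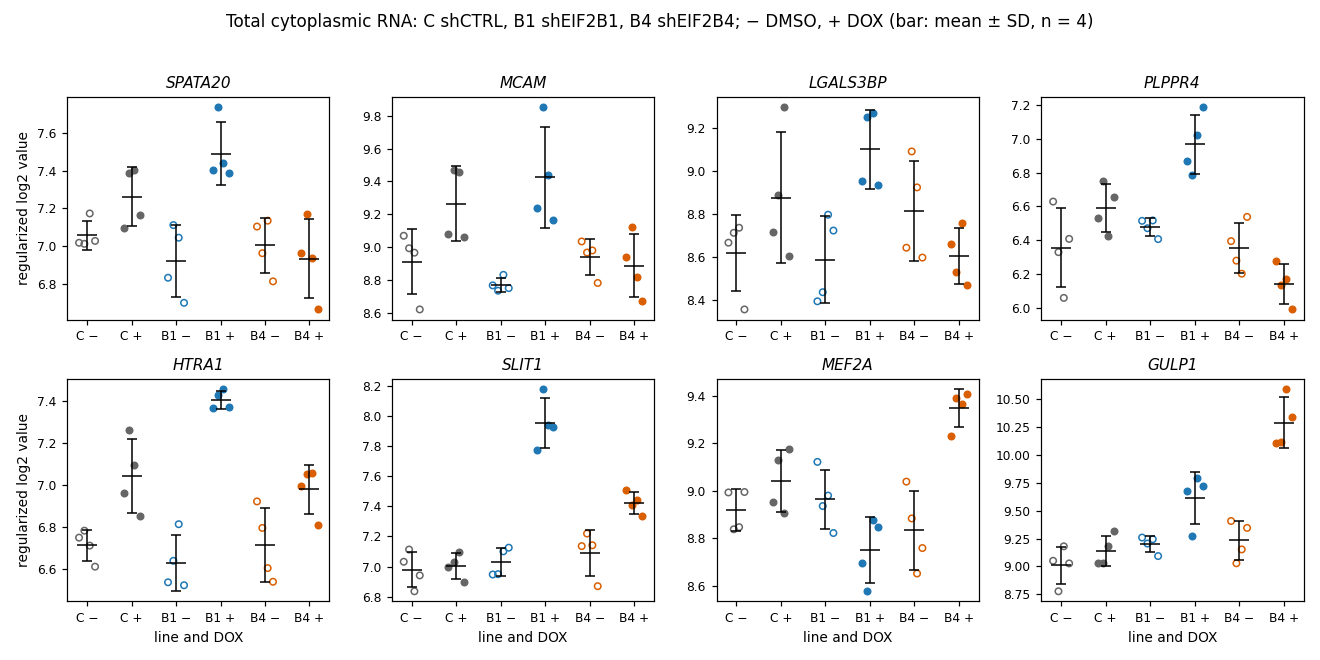
Regularized log2 total RNA values of the 8 genes in every library, for shCTRL (C), shEIF2B1 (B1) and shEIF2B4 (B4) with DMSO (open points) or DOX (filled points). Bars give mean ± SD of 4 weeks, and in each panel the filled shEIF2B1 and shEIF2B4 points do not overlap. These values chose the genes, so the choice favours that separation.

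Of the secreted proteins, SLIT1, a ligand of ROBO receptors known from axon guidance, had the largest RPF response. Its total RNA read 6.95, 6.95, 7.10 and 7.13 in the 4 uninduced shEIF2B1 libraries and 7.77, 8.18, 7.94 and 7.92 after induction. In shEIF2B4 the values were 7.14, 7.22, 7.14 and 6.87 before and 7.51, 7.41, 7.44 and 7.33 after induction. The +DOX libraries lay above the -DOX libraries in each knockdown line, without overlap, whereas shCTRL stayed within 6.84 to 7.11 and 6.90 to 7.10. SLIT1 RPFs went from 8.29, 8.04, 8.32 and 7.79 to 9.85, 9.45, 9.99 and 9.38 in shEIF2B1. They went from 8.72, 7.89, 7.97 and 7.63 to 9.53, 9.10, 9.28 and 8.77 in shEIF2B4, where the week 1 -DOX library stood above the other 3. Both lines again separated by DOX without overlap. The RPF response was 1.46 ± 0.15 to shEIF2B1, a 2.75-fold rise (limma, adjusted p = 2.94e-06), and 1.02 ± 0.17 to shEIF2B4, a 2.03-fold rise (adjusted p = 0.00404). The total RNA responses, given as a description, were 0.90 ± 0.13 and 0.31 ± 0.11. Without the replicate block the rise under shEIF2B4 did not pass (adjusted p = 0.739), nor without week 4 (0.142).

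LGALS3BP encodes galectin-3-binding protein, a secreted glycoprotein, and had the highest RPF level of the 8 genes, at percentile 98.9 of the RPF table. Its total RNA was 8.39, 8.44, 8.80 and 8.72 in uninduced and 8.95, 9.25, 9.27 and 8.93 in induced shEIF2B1 cells. The shEIF2B4 mean went the other way, with values from 8.64, 9.09, 8.92 and 8.60 to 8.66, 8.53, 8.76 and 8.47. The week 1 library was the exception among the shEIF2B4 libraries, with a change of 0.018. Induced shEIF2B1 and shEIF2B4 values did not overlap, and the total RNA responses were 0.26 ± 0.15 and -0.47 ± 0.13. RPFs of LGALS3BP were 12.26, 11.68, 12.39 and 11.59 before and 13.10, 12.47, 13.07 and 12.21 after induction of shEIF2B1. For shEIF2B4 they were 12.85, 11.86, 11.79 and 11.57 before and 12.90, 12.16, 12.39 and 11.75 after. Values differed widely between weeks within each of these groups, and induced values of the lines overlapped. Within weeks, shEIF2B1 was higher with DOX each time, and the RPF response of 0.55 ± 0.13 passed (limma, adjusted p = 0.00799, 0.621 without the replicate block). The RPF response to shEIF2B4 was 0.10 ± 0.20, with a 95% interval of -0.31 to 0.51.

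HTRA1 is a secreted serine protease. Its total RNA was 6.54, 6.64, 6.81 and 6.52 in uninduced and 7.37, 7.43, 7.46 and 7.37 in induced shEIF2B1 cells. In shEIF2B4 it was 6.92, 6.80, 6.60 and 6.54 and 6.99, 7.05, 7.06 and 6.81, and in shCTRL it rose from 6.61 to 6.78 to 6.85 to 7.26. All 3 lines thus had higher means with DOX, shCTRL by 0.33 ± 0.079, and the responses beyond shCTRL were 0.45 ± 0.11 for shEIF2B1 and -0.066 ± 0.11 for shEIF2B4. HTRA1 RPFs followed the same order after induction, with 7.15, 7.25, 7.19 and 7.17 in shEIF2B1 and 6.88, 6.51, 6.52 and 6.51 in shEIF2B4. Before induction they were 6.38, 6.63, 6.65 and 6.16 and 6.46, 6.45, 6.25 and 6.30, which overlap, whereas the induced values do not. Neither RPF response passed, at 0.37 ± 0.17 (limma, adjusted p = 0.141) and -0.13 ± 0.19 (adjusted p = 0.766). The response to shEIF2B1 ran from 0.20 without week 1 to 0.59 without week 3, where it passed (limma, adjusted p = 0.0454), as it did with each library centred on its median (0.0924).

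MCAM, an immunoglobulin-type adhesion molecule of the cell surface, changed on average more than in shCTRL under shEIF2B1 and less under shEIF2B4. The total RNA responses were 0.30 ± 0.15 and -0.41 ± 0.12, the first being -0.024 in week 4. Induced RPF levels were not on both sides of shCTRL, with means of 10.36 in shCTRL, 10.27 in shEIF2B1 and 9.72 in shEIF2B4. MCAM total RNA went from 8.77, 8.73, 8.83 and 8.75 to 9.24, 9.85, 9.44 and 9.16 in shEIF2B1. In shEIF2B4 it went from 9.03, 8.97, 8.98 and 8.78 to 8.94, 9.12, 8.82 and 8.67. The shEIF2B1 groups did not overlap while the shEIF2B4 groups did, and shCTRL itself went from 8.62 to 9.07 to 9.06 to 9.47. MCAM RPFs were 9.64, 9.22, 9.82 and 9.27 and then 10.24, 10.33, 10.53 and 10.00 in shEIF2B1. They were 10.09, 9.39, 9.30 and 9.30 and then 10.02, 9.73, 9.75 and 9.38 in shEIF2B4. In every week the RPF response was above 0 for shEIF2B1 and below 0 for shEIF2B4, with means of 0.30 ± 0.16 and -0.29 ± 0.20. Neither passed (limma, adjusted p = 0.184 and 0.512).

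PLPPR4, a membrane protein related to phospholipid phosphatases and known from neurons, was lowly expressed, at percentile 26.8 of total RNA and percentile 19.6 of RPFs. Its total RNA was 6.52, 6.47, 6.52 and 6.41 in uninduced and 6.87, 6.78, 7.02 and 7.19 in induced shEIF2B1 cells. The shEIF2B4 values were 6.40, 6.28, 6.20 and 6.54 and 6.28, 6.13, 6.17 and 5.99. The shEIF2B1 groups did not overlap, and the lower induced shEIF2B4 values overlapped the uninduced ones. RPFs were 5.61, 5.33, 5.39 and 5.06 and 5.70, 5.74, 5.63 and 6.20 in shEIF2B1, and 5.09, 4.77, 5.02 and 5.10 and 4.67, 4.62, 4.74 and 4.90 in shEIF2B4. All induced shEIF2B1 RPF values exceeded all induced shEIF2B4 values, with a difference of means of 1.08 ± 0.14. The uninduced RPF difference was 0.35, and the all-gene median of the induced RPF difference was 0.12. The RPF response to shEIF2B4 of -0.59 ± 0.19 did not pass (limma, adjusted p = 0.156, 0.0757 without week 1), and that to shEIF2B1 was 0.15 ± 0.21 (adjusted p = 0.655).

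SPATA20, a thioredoxin-like protein named for its expression in testis, had total RNA of 6.83, 7.11, 7.04 and 6.70 in uninduced and 7.40, 7.74, 7.44 and 7.39 in induced shEIF2B1 cells. In shEIF2B4 the values were 7.10, 6.96, 7.13 and 6.81 and 6.96, 7.17, 6.94 and 6.66. The first pair of groups did not overlap and the second did. SPATA20 RPFs were 7.28, 6.69, 7.28 and 6.52 before and 8.13, 7.81, 7.86 and 7.34 after induction of shEIF2B1. In shEIF2B4 they were 7.92, 6.72, 6.77 and 6.59 before and 7.76, 7.15, 7.24 and 6.75 after, with the week 1 -DOX library far above the rest. The RPF response to shEIF2B1 was 0.63 ± 0.17 (limma, adjusted p = 0.0164) and that to shEIF2B4 0.024 ± 0.24 (95% interval -0.47 to 0.52). The first was lost without the replicate block (adjusted p = 0.621), without week 1 (0.119) and without week 4 (0.103).

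**Figure D2:**
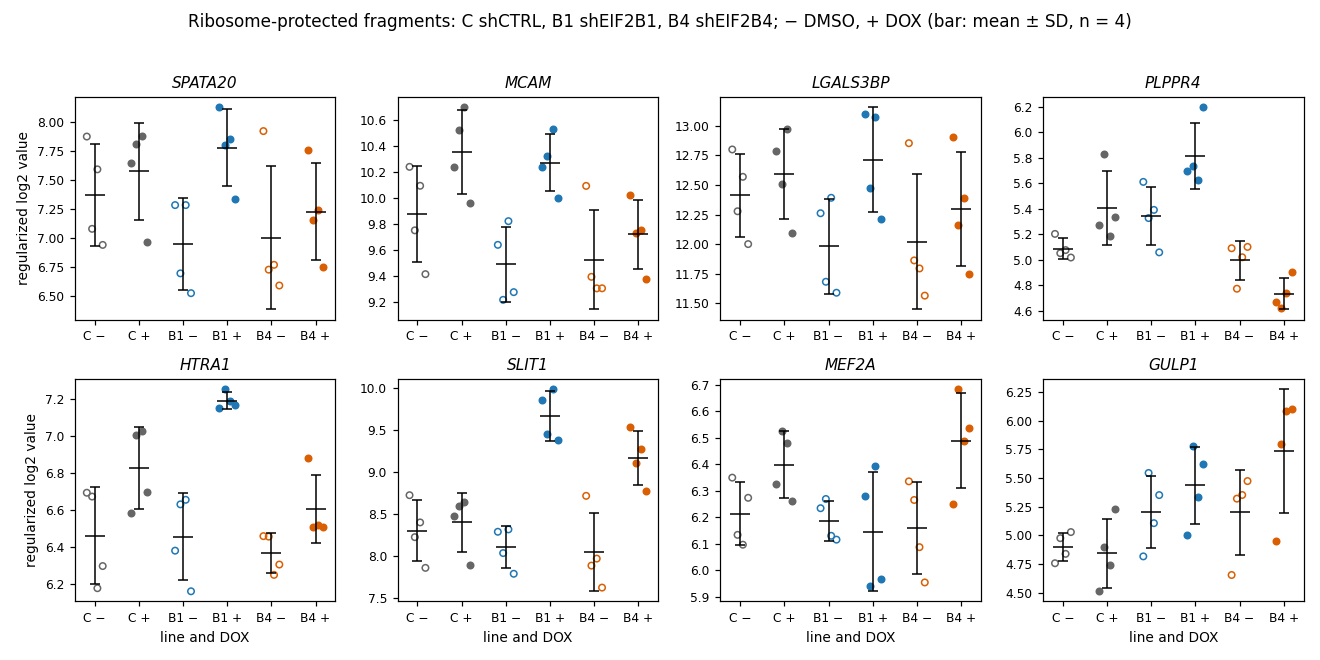
Regularized log2 RPF values of the 8 genes in every library, for shCTRL (C), shEIF2B1 (B1) and shEIF2B4 (B4) with DMSO (open points) or DOX (filled points), points in week order and bars as mean ± SD of 4 weeks. The filled shEIF2B1 and shEIF2B4 points are apart in PLPPR4 and HTRA1, and the week 1 shEIF2B4 -DOX point is high in SPATA20 and MCAM.

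MEF2A is a MADS-box transcription factor, and with GULP1 it was higher under shEIF2B4. MEF2A total RNA was 9.12, 8.94, 8.98 and 8.82 and 8.70, 8.58, 8.88 and 8.85 in shEIF2B1 before and after induction. In shEIF2B4 it was 9.04, 8.88, 8.65 and 8.76 and 9.23, 9.39, 9.36 and 9.41. The induced shEIF2B4 libraries lay above all others of both lines, and the total RNA responses were -0.34 ± 0.13 and 0.39 ± 0.12, opposite in sign. RPFs of MEF2A were 6.23, 6.27, 6.13 and 6.12 and then 6.28, 5.94, 6.39 and 5.97 in shEIF2B1. They were 6.34, 6.27, 6.09 and 5.95 and then 6.25, 6.68, 6.49 and 6.54 in shEIF2B4. These groups overlapped, and the RPF responses of -0.23 ± 0.16 and 0.14 ± 0.17 did not pass (limma, adjusted p = 0.333 and 0.715).

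GULP1 encodes an intracellular adaptor for engulfment receptors. Its total RNA was 9.26, 9.20, 9.24 and 9.09 and 9.68, 9.28, 9.79 and 9.72 in shEIF2B1 before and after induction. In shEIF2B4 it was 9.41, 9.03, 9.15 and 9.35 and 10.10, 10.12, 10.59 and 10.34. Both lines were higher with DOX without overlap, shEIF2B4 by more, with responses of 0.28 ± 0.12 and 0.92 ± 0.13. GULP1 stood at percentile 77.9 of total RNA but at percentile 19.4 of RPFs, each within its own table. RPFs were 4.82, 5.54, 5.11 and 5.35 and 5.01, 5.78, 5.33 and 5.63 in shEIF2B1, and 4.65, 5.32, 5.35 and 5.47 and 4.95, 5.80, 6.08 and 6.11 in shEIF2B4. In shEIF2B4 the week 1 libraries were the lowest of both groups, which overlapped. The RPF response to shEIF2B4 was 0.59 ± 0.20 (limma, adjusted p = 0.162, 0.0408 without week 1), and that to shEIF2B1 was 0.29 ± 0.16 (adjusted p = 0.207).

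In RPFs, 3 of the 8 genes were called in the response to shEIF2B1, SPATA20, LGALS3BP and SLIT1, all higher, against 27.3% of all 11145 genes (3038, of which 1335 higher). The share among the 8 is near that background. Only SLIT1 was called in the response to shEIF2B4, against 2.75% of all genes (307). Without week 1 the calls were SLIT1, PLPPR4 and GULP1, against 14.5% of all genes (1615), and without week 4 none of the 8 was called, against 0.386% (43). The median of the 8 was 0.34 for shEIF2B1 and 0.063 for shEIF2B4, beside medians over all genes of -0.011 and -0.017. The RPF libraries came from the same lysates as the total RNA that chose the genes, so they are not independent samples.

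The difference of the RPF responses pointed the way of total RNA in all 8 genes, but none passed. No share over all genes stands beside that agreement. Both measures come from the same lysates, so variation shared within a lysate favours a common sign in genes chosen on total RNA. Of 11145 genes, 1 was called (0.00897%), UPP1, a gene outside the 8 that was also called in total RNA. At an unadjusted p under 0.05 there were 7 of the 8 genes against 6.4% of all genes (713), and GULP1 was the exception (limma, unadjusted p = 0.122). The RPF difference was largest in PLPPR4, at 0.73 ± 0.20 (95% interval 0.31 to 1.15, limma, adjusted p = 0.745) beside 0.70 ± 0.14 in total RNA. SPATA20 had 0.61 ± 0.21 in RPFs and 0.64 ± 0.12 in total RNA. These pairs are of like size, and their log2 TE differences (log2 RPFs minus log2 total RNA of a lysate) were 0.033 ± 0.19 and -0.031 ± 0.19. MCAM had 0.59 ± 0.20 in RPFs and 0.71 ± 0.14 in total RNA, and HTRA1 0.50 ± 0.18 and 0.51 ± 0.11. For LGALS3BP the values were 0.45 ± 0.19 and 0.72 ± 0.14, and for SLIT1 0.44 ± 0.17 and 0.59 ± 0.12. MEF2A and GULP1 had the smallest RPF differences, -0.37 ± 0.17 and -0.30 ± 0.19, smaller than those in total RNA, -0.73 ± 0.13 and -0.64 ± 0.13. Their log2 TE differences were 0.36 ± 0.17 (95% interval 0.02 to 0.70) and 0.33 ± 0.21 (-0.093 to 0.76), given as a description since total RNA enters them. MEF2A stood at percentile 35.5 of RPFs and 70.6 of total RNA, and GULP1 at 19.4 and 77.9. Regularized values shrink differences of lowly counted genes, separately in each measure. PLPPR4, with the largest RPF difference, stood at percentile 19.6 of RPFs. Whether shrinkage made the RPF differences of MEF2A and GULP1 smaller was not tested.

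**Figure D3:**
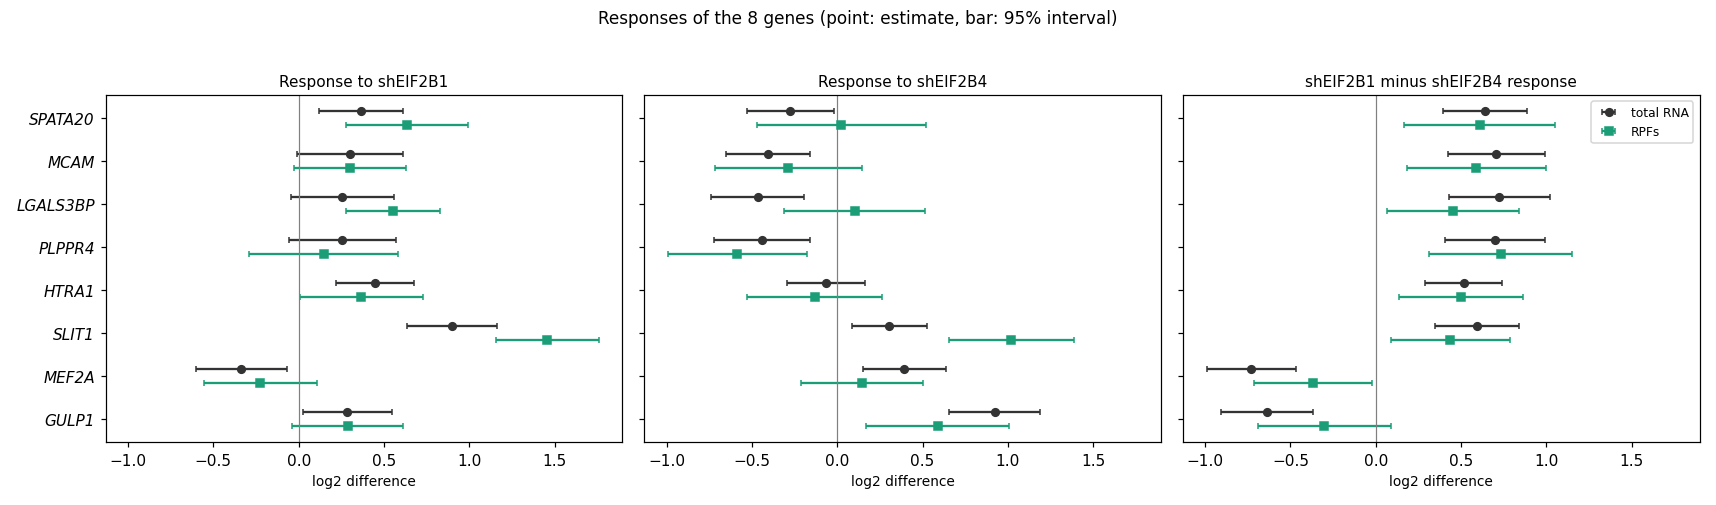
Responses of the 8 genes to shEIF2B1 (left), to shEIF2B4 (middle) and their difference (right), in total RNA (circles) and RPFs (squares), with 95% intervals from limma on the log2 axis. In the right panel the RPF intervals leave out 0 in 7 genes and include it in GULP1, and the total RNA values are those that chose the genes.

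Taken within each week, the RPF difference had 1 sign in all 4 weeks in 7 of the 8 genes, against 14% of all genes (1557). MEF2A was the exception, with a week 1 difference of 0.13 among values of -0.74, -0.14 and -0.73. In total RNA each of the 8 kept its sign in all weeks, as its choice favours. The RPF values of LGALS3BP and SPATA20 were smallest in week 3, at 0.089 and 0.095, where LGALS3BP total RNA still differed by 0.64 and SPATA20 by 0.59. Induced shEIF2B1 and shEIF2B4 RPF libraries did not overlap in 2 of the 8 genes, PLPPR4 and HTRA1, against 5.84% of all genes (651). The RPF libraries share lysates with the total RNA that chose the genes. Variation shared within a lysate favours steady RPF signs and separation, so neither RPF count is free of the choice.

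**Figure D4:**
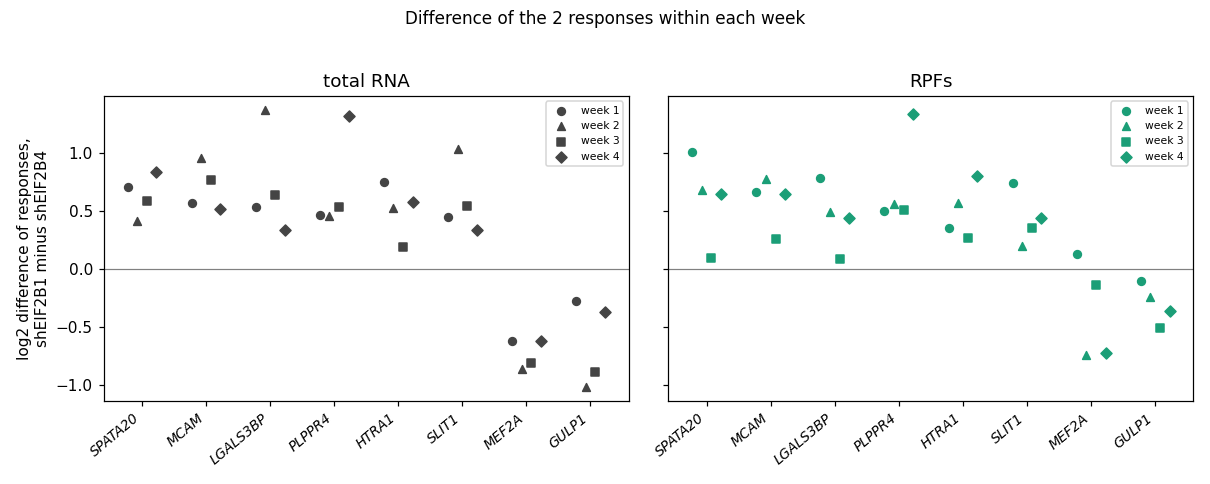
Difference of the responses to shEIF2B1 and shEIF2B4 within each week (log2, 1 symbol per week), for total RNA (left) and RPFs (right). The RPF points lie on one side of 0 in every gene but MEF2A.

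Before induction the shEIF2B1 and shEIF2B4 lines overlapped in all 8 genes, while their libraries did not overlap in 8.47% of all genes in total RNA (1012) and 5.34% in RPFs (595). In total RNA the uninduced difference, shEIF2B1 minus shEIF2B4, ran from -0.23 ± 0.10 in LGALS3BP to 0.13 ± 0.09 in MEF2A, given as a description since it enters the contrast that chose the genes. Within weeks it was below 0 in all 4 for MCAM and above 0 in all 4 for MEF2A, and the 95% interval for LGALS3BP was -0.44 to -0.017. In 6 of the 8 genes its sign was opposite to that of the difference of responses, and PLPPR4 (0.12) and GULP1 (-0.033) were the others. The uninduced difference is subtracted in the contrast that chose the genes, so the choice itself favours an opposite sign. After induction the differences were 0.43 ± 0.078 in HTRA1 to 0.82 ± 0.10 in PLPPR4 among the 6 genes higher in shEIF2B1. They were -0.60 ± 0.09 in MEF2A and -0.67 ± 0.093 in GULP1. In RPFs none of the 8 was called between the uninduced lines (limma), against 4.67% of all genes (520, of which 515 higher in shEIF2B1). At an unadjusted p under 0.05 there was 1 of the 8, under the background of 23.2% of all genes (2591). That gene was PLPPR4, at 0.35 ± 0.14 (adjusted p = 0.153), which became 0.20 with each library centred on its median. The other 7 lay between -0.055 (SPATA20) and 0.09 (HTRA1), under the all-gene median of 0.13. For SPATA20 the 95% interval was -0.37 to 0.26, wide beside its estimate.

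**Figure D5:**
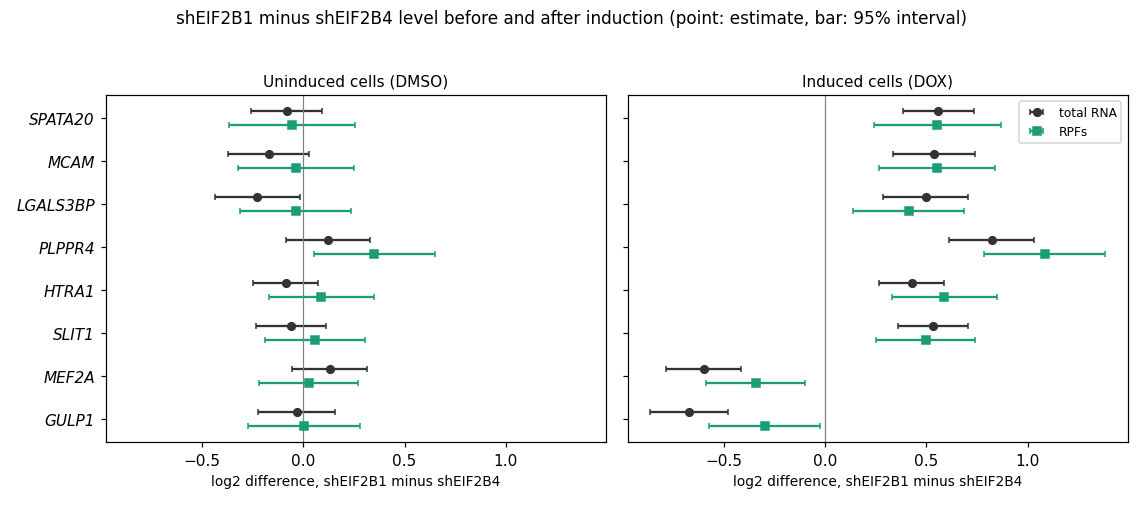
Level of the 8 genes in shEIF2B1 minus shEIF2B4 before (left) and after induction (right), in total RNA (circles) and RPFs (squares), with 95% intervals from limma on the log2 axis. Before induction the total RNA points run from -0.23 (LGALS3BP) to 0.13 (MEF2A) and RPFs of PLPPR4 lie at 0.35, and after induction the total RNA points reach 0.82 (PLPPR4) and -0.67 (GULP1).

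Both uninduced knockdown lines had lower RPFs than shCTRL in SPATA20, MCAM and LGALS3BP, but for shEIF2B4 this did not hold with median centring of the libraries. Against shCTRL the shEIF2B1 line differed by -0.43 ± 0.15, -0.39 ± 0.14 and -0.43 ± 0.13 in these genes (limma, adjusted p = 0.0392, 0.0415 and 0.0215). With GULP1, which was higher by 0.30 ± 0.13 (adjusted p = 0.0858), 4 of the 8 were called, against 39.7% of all genes (4429). The shEIF2B4 line differed from shCTRL by -0.37 ± 0.15, -0.35 ± 0.14 and -0.39 ± 0.13 (limma, adjusted p = 0.0786, 0.0716 and 0.0394), so 3 of the 8 were called, against 31.4% of all genes (3497). The all-gene median of that comparison was -0.13, and with centring the values became -0.28, -0.26 and -0.30, none of which passed (limma, adjusted p = 0.23, 0.227 and 0.151). GULP1 then passed, higher by 0.39 (adjusted p = 0.0543). The shares of 4 and 3 of 8 are near the background. None of the 8 was called without the replicate block in either comparison (0% and 0.269% of all genes), nor without week 2 (4.58% and 14.6%). In total RNA the same differences from shCTRL ran from -0.14 (SPATA20) to 0.19 (GULP1) for shEIF2B1, and from -0.085 (MEF2A) to 0.22 (GULP1) for shEIF2B4.

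Some of the genes rose in shCTRL, where DOX also induces the non-targeting hairpin, a contrast the choice of the genes did not use. In total RNA 2 of the 8 rose, MCAM by 0.35 ± 0.086 (limma, adjusted p = 0.0787) and HTRA1 by 0.33 ± 0.079 (adjusted p = 0.0779), against 4.44% of all genes (531). In RPFs MCAM rose by 0.48 ± 0.12 (limma, adjusted p = 0.0504), 1 of the 8 against 9.85% of all genes (1098). The calls were lost without the replicate block and without week 2, 3 or 4, whereas without week 1 there were 5 of 8 in each measure, against 20.5% of all genes in total RNA (2452) and 31.6% in RPFs (3526). In the runs that lost the calls, at most 1.39% of all genes were called in total RNA and 0.0359% in RPFs. The estimates of the 8 were all above 0 in total RNA, from 0.024 (SLIT1) to 0.35 (MCAM), with a median of 0.22 beside -0.0034 over all genes. In RPFs the change closest to 0 was that of GULP1, at -0.056.

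The mean response of both knockdowns is orthogonal to the contrast that chose the genes, but in total RNA it uses the same libraries. A gene chosen for a strong response to 1 knockdown also has a shifted mean response, so the total RNA count and p values are not free of the choice. GULP1 and SLIT1 rose in total RNA, by 0.60 ± 0.11 and 0.60 ± 0.10 (limma, adjusted p = 0.00186 and 0.00072), 2 of the 8 against 6.09% of all genes (728). In RPFs they rose by 0.44 ± 0.16 and 1.24 ± 0.15 (limma, adjusted p = 0.0888 and 4.16e-06), 2 of the 8 against 16.2% of all genes (1808). GULP1 RPFs did not pass without the replicate block (adjusted p = 0.749) or without week 2, 3 or 4. The other 6 genes had mean responses from -0.10 (LGALS3BP) to 0.19 (HTRA1) in total RNA, where opposite or unequal responses offset each other.

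SLIT1 RPFs rose by more than its total RNA. Its log2 TE was 1.34, 1.09, 1.22 and 0.67 in uninduced and 2.08, 1.28, 2.04 and 1.46 in induced shEIF2B1 cells. In shEIF2B4 it was 1.58, 0.67, 0.83 and 0.76 before and 2.03, 1.70, 1.84 and 1.44 after induction. Log2 TE was higher with DOX in every week of both lines, and beyond the change in shCTRL in every week for shEIF2B4 but not in week 2 for shEIF2B1, at -0.27. The mean response of log2 TE was 0.64 ± 0.16 (limma, adjusted p = 0.0677), the only one of the 8 called, against 1.41% of 10836 genes (153). This test was added after the values were seen, and it did not pass without the replicate block (adjusted p = 0.843) or without week 1, 3 or 4 (up to 0.417). Log2 TE contains the total RNA values that chose the genes, so this call is not free of the choice. LGALS3BP was next, at 0.43 ± 0.20 (adjusted p = 0.225).

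Averaged over -DOX and +DOX, 6 of the 8 genes differed between the shEIF2B1 and shEIF2B4 lines in total RNA, against 10.9% of all genes (1301). This average uses the same libraries as the choice. Genes chosen for lines that part after induction from similar uninduced levels also differ in it. The total RNA count and the p values of its genes thus partly restate the choice. PLPPR4 was higher in shEIF2B1 by 0.47 ± 0.071 and GULP1 lower, at -0.35 ± 0.066 (limma, adjusted p = 0.000109 and 0.00101). SPATA20, SLIT1 and HTRA1 were higher and MEF2A lower, while MCAM (0.18 ± 0.069) and LGALS3BP (0.14 ± 0.072) did not pass. The HTRA1 call was lost without the replicate block (limma, adjusted p = 0.144), with centring (0.16), without the lowest 25% of genes (0.118) and without week 3 or 4. Without week 4, SPATA20, MEF2A and SLIT1 were lost too, and without week 2 MEF2A, while without week 1 MCAM passed. In RPFs PLPPR4, HTRA1, SLIT1 and MCAM were higher in shEIF2B1, 4 of the 8 against 28.1% of all genes (3134, of which 3061 higher). PLPPR4 differed by 0.72 ± 0.10 (limma, adjusted p = 0.00016) beside an all-gene median of 0.13. It was called in every alternative run that included it, since leaving out the lowest 25% of genes removed it. With each library centred on its median, HTRA1, SLIT1 and MCAM no longer passed and MEF2A did, lower in shEIF2B1 by -0.30 (limma, adjusted p = 0.0724).

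The 8 genes varied together to different degrees over the 24 total RNA libraries once the mean of each week was removed. These libraries include those on which the genes were chosen, so the sign of r within and between the 2 directions partly restates that choice. Pearson r, as a description over libraries that share lines and treatments, was 0.871 between SPATA20 and MCAM, 0.814 between MCAM and LGALS3BP, and 0.81 between HTRA1 and SLIT1. Between MEF2A and GULP1 it was 0.621. MEF2A had negative r with each of the 6 genes that responded more to shEIF2B1, from -0.53 with LGALS3BP to -0.0321 with HTRA1. GULP1 instead had r of 0.525 with SLIT1 and 0.421 with HTRA1. Outside the 8, the gene most like SLIT1 was MARS1, the methionyl-tRNA synthetase (r = 0.932), and the gene most like GULP1 was AREG, the EGFR ligand amphiregulin (r = 0.968). MCAM was most like PTPRU, a receptor tyrosine phosphatase (r = 0.944), HTRA1 like NXPH4 (r = 0.921), MEF2A like PTPDC1 (r = 0.9), and SPATA20 like GNAZ, a G protein subunit (r = 0.897). LGALS3BP was most like PLOD3, a collagen lysyl hydroxylase (r = 0.863), and PLPPR4 like LMO4, a LIM-domain cofactor (r = 0.847).

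Relatives of the 8 genes were taken from 8 lists of partners and family members with 78 other genes. Of the 51 in the total RNA table, none was called in the response to shEIF2B1 (limma), against 3.47% of all genes, and 3 in the response to shEIF2B4 (5.88% against 5.4%). Those were EPCAM and F11R, adhesion molecules of epithelia, which rose, and HTRA3, a protease related to HTRA1, which fell by 0.40. At an unadjusted p under 0.05 there were 6 in the response to shEIF2B1 (11.8% against 15.3% of all genes). The RPF table also held 51 of the relatives, 48 of them in both tables, and none was called for a difference between the responses in either (limma). At an unadjusted p under 0.05 that difference had 12 in total RNA (23.5% against 12.8% of all genes) and 1 in RPFs (1.96% against 6.4%). In RPFs 13 of 51 were called in the response to shEIF2B1, 7 higher and 6 lower (25.5% against 27.3% of all genes). The adhesion molecules L1CAM, NECTIN2 and ICAM1 rose by 0.71 ± 0.18, 0.45 ± 0.13 and 0.43 ± 0.13, in a list whose 12 measured members had a median of 0.15. The thioredoxin-like proteins TXNDC9, TXNDC17, TXNL1 and TXN fell, by 0.64, 0.58, 0.56 and 0.46, in a list of 9 with a median of -0.31, opposite to SPATA20. Among engulfment receptors and adaptors, LRP1 and AXL rose by 0.68 ± 0.24 and 0.42 ± 0.17, and CRK fell by 0.32. Of the lists of MEF2A and PLPPR4, HDAC5 rose by 0.48 ± 0.20, MAPK14 fell by 0.44 and PLPP5 rose by 0.58 ± 0.18. Only TXNDC12 was called in the RPF response to shEIF2B4, where it fell by 0.52.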

How the data were processed

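Ribosome profiling and total cytoplasmic RNA sequencing of SW480 cells gave 48 libraries from 24 lysates. Per the labels, reads were handled with cutadapt 1.18, Bowtie2, SAMtools 1.9, RSEM, R 4.3.1 and DESeq2. The authors mapped total RNA to the GENCODE 38 protein-coding transcriptome, chose for each gene its most expressed transcript, and counted RPFs of 28 to 33 nt on the coding sequence. They deposited regularized log2 values, made separately for each table, which shrink differences of lowly counted genes. No counts are given in the tables, so depth and counting error are unknown. The names of all replicate 3 libraries end in the suffix c, and the names do not say what it marks.

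Values were fitted with limma 3.58.1 in R 4.3.3, with the replicate as a block and a mean-variance trend: 16 libraries for a response, 8 for shCTRL and 24 for contrasts of lines. The replicate numbers pair libraries because the replicates were run in separate weeks. After group means were removed, libraries of 1 week had a mean correlation across genes of 0.559 in RPFs and 0.183 in total RNA, against -0.186 and -0.0589 otherwise. P-values measure the spread between weeks of the same pools. For the 8 genes, total RNA was tested only in contrasts orthogonal to the one that chose them. The line average and the mean response still use the libraries of the choice, so their total RNA counts and p values are not free of it. Total RNA also enters the log2 TE mean response, to which the same limit applies. Of 200 genes simulated with a log2 change of 1 in the RPF difference of responses, among 11145 genes, 187 were recovered, with 23 false calls. The RPF differences of the 8 genes were smaller, from -0.37 to 0.73, so this recovery does not apply to them.

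The genes and lists were chosen with earlier results of these data known. Named genes are the 8, the targeted genes, ATF4, DDIT3, the gene most correlated with each, and up to 4 called genes per list of relatives. Other genes named as near or past the threshold, and HTRA3, TXNDC12 and the remaining called relatives, follow from the counts given. Alternatives were no block, no trend, median centring, the lowest 25% of genes left out, robust variances, other sets of libraries, and each replicate left out. Figures were drawn with matplotlib 3.10.9 under Python 3.11.15.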

Additional observations from a re-analysis of the deposited data

Results flagged for a closer look

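In 5 of the 96 groups of 4 libraries, 1 library stood apart by Dixon's criterion, which chance meets in about 1 in 20 groups. In RPFs the week 1 shEIF2B4 -DOX library was the highest of its group in SPATA20 (7.92) and MCAM (10.09), and the week 1 shEIF2B4 +DOX library in HTRA1 (6.88). In total RNA, SPATA20 had a high week 3 library in shCTRL -DOX (7.17) and a high week 2 library in shEIF2B1 +DOX (7.74). Without week 1, the RPF response to shEIF2B4 was called in 3 of the 8 genes, against 14.5% of all genes (2.75% with it). The difference of RPF responses was then called in 0 of 8, against 0.0179% of all genes. MCAM RPFs had a response above 0 to shEIF2B1 (0.30) and below 0 to shEIF2B4 (-0.29) in each of the 4 weeks, which stands out as opposite directions, while the limma test of that difference gave an unadjusted p of 0.00634 and an adjusted p of 0.746.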

How the results depend on the processing

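Values below are numbers of the 8 genes called. No alternative changed the 0 of 8 for the difference of RPF responses or for uninduced RPFs of shEIF2B1 against shEIF2B4, nor the 2 of 8 for the mean response in total RNA. Only 0 to 2 of 11145 genes passed for the difference of RPF responses in any run, so 0 of 8 is near that background. The all-gene share ran from 0% to 21.6% for the uninduced lines and from 1.89% to 6.22% for the total RNA mean response. Without the replicate block, 1 gene was called in the RPF response to shEIF2B1 (3 with it), 0 in that to shEIF2B4 (1), 0 and 0 in uninduced RPFs of shEIF2B1 and shEIF2B4 against shCTRL (4 and 3), 0 in the shCTRL change in total RNA and RPFs (2 and 1), 2 in the RPF line average (4), 1 in the RPF mean response (2) and 0 in the log2 TE mean response (1). Over all genes the block raised RPF calls for shEIF2B1 from 50 to 3038. Without it the all-gene share was 0.323% for the RPF response to shEIF2B4 (2.75% with it). For uninduced shEIF2B1 and shEIF2B4 against shCTRL it was 0% and 0.269% (39.7% and 31.4%). In the shCTRL change it was 0.0753% in total RNA and 0% in RPFs (4.44% and 9.85%). For the RPF line average, RPF mean response and log2 TE mean response it was 5.11%, 0.592% and 0% (28.1%, 16.2% and 1.41%). Median centring gave 2 in the RPF line average (4 without it), 5 in the total RNA line average (6), 1 and 3 in uninduced RPFs of shEIF2B4 and shEIF2B1 against shCTRL (3 and 4) and 4 in the RPF response to shEIF2B1 (3). The all-gene shares with centring were 3.01% and 8.21% in the line average of RPFs and total RNA (28.1% and 10.9%). They were 18.4% and 41.7% for uninduced shEIF2B4 and shEIF2B1 (31.4% and 39.7%), and 27.7% in the RPF response to shEIF2B1 (27.3%). Leaving out the lowest 25% of genes removed PLPPR4 and GULP1 from the RPF table and gave 1 in the RPF mean response (2), 3 and 5 in the line average of RPFs and total RNA (4 and 6) and 3 for uninduced shEIF2B1 against shCTRL (4). Of the genes kept, 17.9% were called in the RPF mean response and 46.6% for uninduced shEIF2B1 against shCTRL. In the line average 22.7% were called in RPFs and 3.45% in total RNA. No mean-variance trend gave 4 for uninduced shEIF2B4 against shCTRL (3), with 31.5% of all genes. The fit of 24 libraries gave 2 in the shCTRL change of RPFs, with 9.44% of all genes. With each replicate left out, calls ran from 2 to 4 and 0 to 3 in the RPF responses to shEIF2B1 and shEIF2B4, 0 to 4 and 0 to 5 in uninduced RPFs against shCTRL, 0 to 5 in the shCTRL change of either measure, 2 to 7 in the line average of either measure, 1 to 2 in the RPF mean response and 0 to 1 in log2 TE. Over all genes, calls in the RPF response to shEIF2B4 then ran from 43 to 1615 and in that to shEIF2B1 from 1529 to 2714. The cause of these changes was not tested.

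Sign changes occurred only in estimates that were not called. With median centring, uninduced RPFs of shEIF2B1 minus shEIF2B4 became -0.13 in MEF2A, -0.15 in GULP1, -0.065 in HTRA1 and -0.096 in SLIT1, and shEIF2B4 minus shCTRL became 0.041 in MEF2A, 0.0024 in PLPPR4 and 0.00068 in HTRA1. With each replicate left out, the following crossed 0. Uninduced RPFs of shEIF2B1 minus shEIF2B4 ran from -0.25 to 0.14 in SPATA20, -0.018 to 0.069 in MEF2A, -0.22 to 0.10 in MCAM, -0.25 to 0.15 in LGALS3BP, -0.069 to 0.088 in GULP1, -0.016 to 0.17 in HTRA1 and -0.038 to 0.22 in SLIT1. Against shCTRL, shEIF2B1 ran from -0.080 to 0.018 in MEF2A and -0.16 to 0.10 in HTRA1, and shEIF2B4 from -0.11 to 0.036 in MEF2A. The RPF response to shEIF2B1 ran from -0.079 to 0.32 in PLPPR4, and that to shEIF2B4 from -0.032 to 0.13 in SPATA20, -0.0069 to 0.21 in MEF2A and -0.35 to 0.017 in HTRA1. The shCTRL change ran from -0.055 to 0.060 in SLIT1 total RNA and -0.14 to 0.0073 in GULP1 RPFs. The mean response ran from -0.045 to 0.11 in MEF2A total RNA, -0.13 to 0.025 in MCAM total RNA, -0.13 to 0.061 in MEF2A RPFs, -0.076 to 0.062 in MCAM RPFs, -0.078 to 0.31 in HTRA1 RPFs, -0.12 to 0.0084 in MEF2A log2 TE and -0.25 to 0.11 in HTRA1 log2 TE.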
